A study of Caenorhabditis elegans with 2 samples.

Results

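In the C. elegans genome many protein-coding genes start a short distance after the end of another gene on the same strand, the arrangement seen in operons. Of 19973 protein-coding genes in the WBcel235 (ce11) annotation, 2512 (12.6%) had their annotated 5′ end 1 to 300 bp past the 3′ end of the nearest upstream protein-coding gene on that strand, and they are called downstream genes here. Genes chosen in this way were chained into 1969 runs, each with 1 first gene that no such neighbour precedes, and the remaining 15492 genes belonged to no run. The choice used gene positions alone and no binding value. What was counted is the summit, the highest point of a ChIP-seq peak, within 500 bp upstream of each gene start.

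The peaks came from chromatin immunoprecipitation and sequencing of LSY-2 fused to eGFP in whole L4 larvae, the last larval stage, with both sexes pooled. Both libraries, biological replicates 1 and 2 of a single group, were from strain OP240, whose genotype is unc-119(ed3) III; wgIs240, where wgIs240 is the integrated lsy-2 transgene. No second genotype, stage or treatment was compared, and a control library entered through the authors' peak calling. The tagged protein is made from a transgene, the labels give lsy-2 as the antibody, and in whole animals strong binding in few cells and weak binding in many cannot be told apart. The list of peaks kept after the irreproducible discovery rate (IDR) step, called the optimal list, held 1563 peaks. The candidate lists, which also hold background regions, had 25003 entries in replicate 1, 24002 in replicate 2 and 22035 from both replicates pooled. Read depth is unknown, so the exact 95% intervals given below cover counting error only.

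LSY-2, a zinc finger protein of the C2H2 class, is known for its part in left-right asymmetry of the ASE taste neurons, in which it helps to switch on the microRNA lsy-6 on the left side. In a C. elegans operon, a promoter before the first gene makes a long precursor RNA that covers several genes. The precursor is cut into single messages, and each downstream message receives a short spliced leader, typically SL2, at a splice acceptor whose last bases are AG. Between the genes of such an operon the RNA carries the signal for the 3′ end of the preceding message, commonly AAUAAA, and then the acceptor. Some downstream genes also have a promoter of their own in the gap, and operons of that kind are known as hybrid operons. No operon or spliced-leader annotation was used here, so the runs are defined by spacing, and the label was compared with the letters before the starts and with known operons.

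Sequences of picked gaps, with and without a summit, are printed first. The sequences are from the RefSeq copy of WBcel235 (ce11), read 5′ to 3′ on the strand of the gene, from the base after the upstream gene to the base before the downstream start. Capitals mark the pattern GAGAGA, the pattern ACGCAG, the pattern CGTCTC and the pattern GCTGGCG on either strand, and an AG that directly precedes the start. The first 4 are gaps that held an LSY-2 summit, at his-37 (chrV:9546842-9547104, plus strand, summit at base 182), Y39B6A.43 (chrV:18967830-18967904, minus strand, base 60), fbxl-2 (chrIII:4757022-4757259, plus strand, base 156) and rpn-11 (chrII:4044547-4044770, minus strand, base 222). The next 3 are gaps of known operons without a summit, at gpd-3 (chrX:3113342-3113442), rps-16 (chrV:15000542-15000650) and tra-2 (chrII:6965674-6965799), all on the minus strand. The last is the 100 bp before fib-1 (chrV:15002224-15002323, minus strand, summit at base 31), the first gene of the run that holds rps-16, shown as a first gene with a summit.
his-37: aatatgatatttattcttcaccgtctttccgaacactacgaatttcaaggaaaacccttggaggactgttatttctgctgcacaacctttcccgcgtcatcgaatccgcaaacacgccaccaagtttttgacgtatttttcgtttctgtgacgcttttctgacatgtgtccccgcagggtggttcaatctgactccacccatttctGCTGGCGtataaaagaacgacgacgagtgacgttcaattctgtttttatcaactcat
Y39B6A.43: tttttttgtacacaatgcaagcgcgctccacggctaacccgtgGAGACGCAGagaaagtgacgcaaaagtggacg
fbxl-2: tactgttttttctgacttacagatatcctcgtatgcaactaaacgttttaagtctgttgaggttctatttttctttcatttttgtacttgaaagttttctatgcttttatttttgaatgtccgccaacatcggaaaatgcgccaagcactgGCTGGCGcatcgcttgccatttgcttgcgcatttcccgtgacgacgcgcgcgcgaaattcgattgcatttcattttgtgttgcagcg
rpn-11: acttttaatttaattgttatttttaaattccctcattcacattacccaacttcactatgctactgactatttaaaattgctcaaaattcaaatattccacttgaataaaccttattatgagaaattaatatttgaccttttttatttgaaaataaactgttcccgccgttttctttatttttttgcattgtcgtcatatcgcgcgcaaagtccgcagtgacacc
gpd-3: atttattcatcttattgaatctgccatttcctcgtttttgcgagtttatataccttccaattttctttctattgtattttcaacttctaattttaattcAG
rps-16: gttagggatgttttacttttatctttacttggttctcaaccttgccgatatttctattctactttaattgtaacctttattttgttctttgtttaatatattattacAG
tra-2: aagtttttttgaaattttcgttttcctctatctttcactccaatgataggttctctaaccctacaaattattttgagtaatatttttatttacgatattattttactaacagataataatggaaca
fib-1: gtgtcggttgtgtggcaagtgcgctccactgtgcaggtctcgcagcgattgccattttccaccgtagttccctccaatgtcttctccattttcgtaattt

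None of these stretches overlapped an annotated protein-coding or noncoding gene. The gaps of gpd-3 and rps-16 ended in AG at the start of the gene, and that of tra-2 did not. GC content was 26.7%, 26.6% and 24.6% in the 3 gaps without a summit. It ran from 30.4% at rpn-11 to 52.0% at Y39B6A.43 in the 4 gaps with one, and the stretch before fib-1 lay within that range.

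Downstream genes had LSY-2 summits less often than the first genes of their runs. In the optimal list, 32 of 2512 downstream genes had a summit within 500 bp upstream (1.27%, interval 0.873% to 1.79%), where 810 of all 19973 genes, 4.06%, did. Of the first genes, 209 of 1969 had one (10.6%, interval 9.29% to 12.1%). Genes in no run had one in 569 of 15492 cases (3.67%, interval 3.38% to 3.98%). The first genes' share was 8.33 times that of the downstream genes and 2.89 times that of genes in no run.

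Each replicate alone gave the same order. The 1563 strongest candidates of replicate 1 put a summit before 36 downstream genes (1.43%), beside 3.88% of all genes, and before 202 first genes (10.3%). Those of replicate 2 put one before 34 downstream genes (1.35%), beside 3.94% of all genes, and before 199 first genes (10.1%). The difference between first and downstream genes was 8.83 percentage points in replicate 1 and 8.76 in replicate 2, so it was far larger than the spread between replicates. No p-value was computed, since the design has 1 group of 2 samples and genes are not replicates.

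In the pooled candidates weak regions are counted too. There 477 downstream genes (19.0%), 626 first genes (31.8%) and 2703 genes in no run (17.4%) had a summit in the window, beside 19.1% of all genes. With weak candidates included, the downstream genes' share was therefore close to that of all genes.

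**Figure D1:**
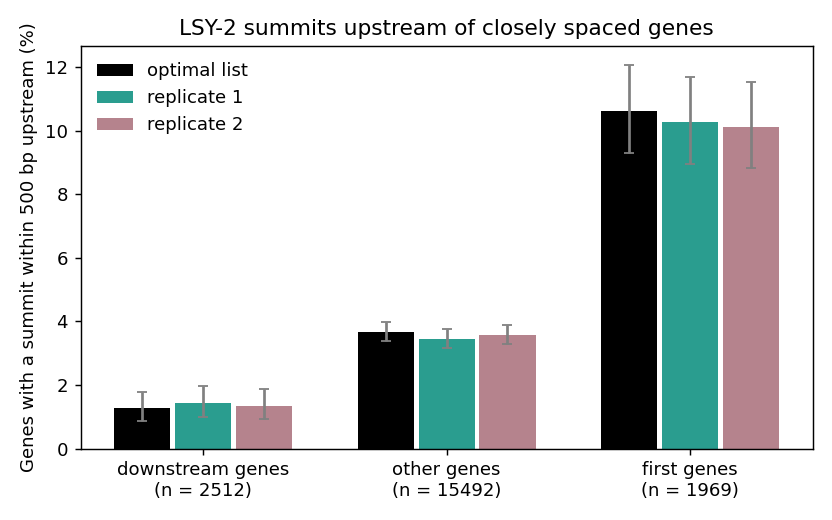
Share of genes (%) with an LSY-2 summit within 500 bp upstream of the start, for downstream genes, genes in no run (other genes) and first genes, in the optimal list and in the strongest candidates of each replicate. Bars start at 0 and error bars are exact 95% binomial intervals that cover counting error only. First genes reach 10.6% in the optimal list, and downstream genes 1.27%.

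The contrast was carried by the strong candidates. When each gene was given its best-ranked pooled candidate, ranks 1 to 1563 held 1.27% of downstream genes and 10.6% of first genes, and ranks 1564 to 5000 held 4.02% and 8.02%. Ranks 5001 to 10000 held 4.90% and 5.49%, and ranks 10001 to 15000 held 3.86% and 4.01%. In the weakest tier, ranks 15001 to 22035, the order turned, with 4.94% of downstream and 3.66% of first genes. Each gene counts in its best tier alone, and a larger share of first genes was already placed in stronger tiers. Part of the turn therefore follows from the way of counting.

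The width of the gap went with the share of downstream genes that had a summit. Gaps had a median of 116 bp, with quartiles of 94.75 and 198 bp, and 667 of them (26.6%) measured 100 to 130 bp. Among the 1590 downstream genes with gaps of 1 to 150 bp, 7 had an optimal summit in the window (0.440%, interval 0.177% to 0.905%), 11 in replicate 1 and 8 in replicate 2. Among the 922 with gaps above 150 bp, 25 had one (2.71%, interval 1.76% to 3.98%), 25 in replicate 1 and 26 in replicate 2. The intervals of both gap classes do not overlap.

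In finer steps of the gap, the share was 1 of 211 genes at 1 to 50 bp, 4 of 595 above that to 100 bp and 2 of 784 from there to 150 bp. In the next steps, which end at 200, 250 and 300 bp, it was 5 of 310 genes (1.61%), 10 of 314 (3.18%) and 10 of 298 (3.36%). Genes past the limit, which are not downstream genes by the rule, had 22 of 577 (3.81%) up to 400 bp and 30 of 526 (5.70%) from there to 500 bp. The share did not go on rising, with 58 of 2151 (2.70%) in the next step, to 1000 bp, and 90 of 2363 (3.81%) in the one to 2000 bp. In the plot of share by gap width, the optimal share rose above 150 bp, with no jump at the 300 bp limit. The intervals of the steps that end at 150 and 200 bp overlap (0.0309% to 0.919% and 0.526% to 3.72%). Replicate 1 had 3 of 211 genes (1.42%) at 1 to 50 bp.

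**Figure D2:**
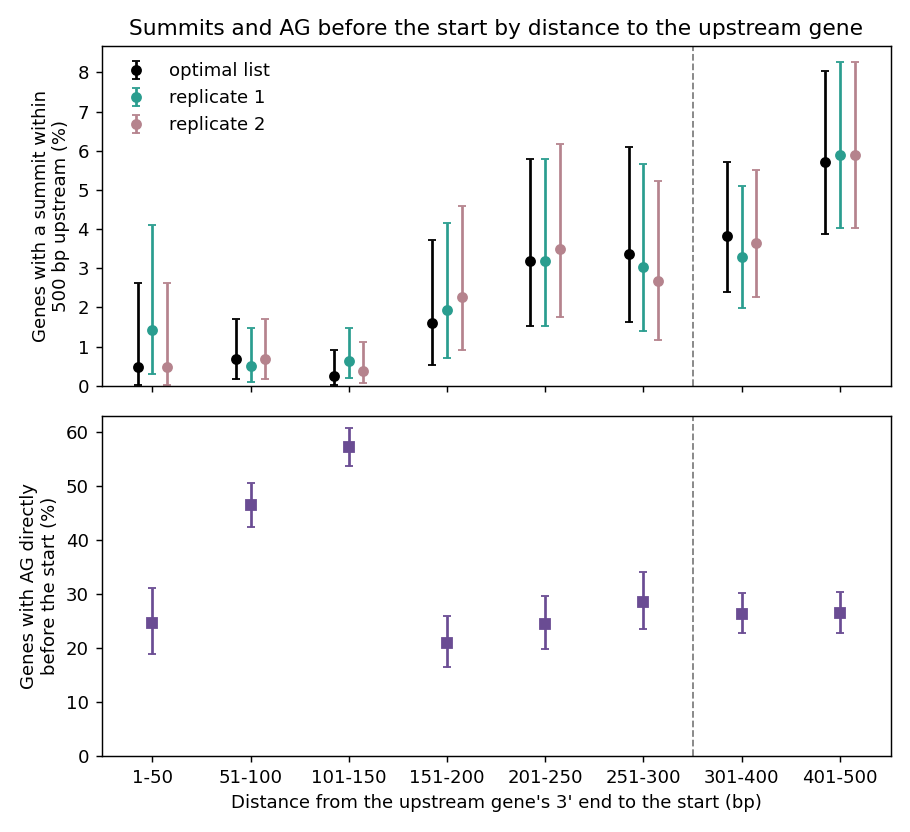
Upper panel, share of genes (%) with an LSY-2 summit within 500 bp upstream in the optimal list and each replicate; lower panel, share of genes (%) with AG directly before the start; both against the distance (bp) from the upstream gene's 3′ end to the start, with exact 95% binomial intervals and a dashed line at the 300 bp limit. The step that ends at 150 bp has 0.255% with a summit in the optimal list, 0.638% in replicate 1 and 0.383% in replicate 2, and 57.1% with AG.

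A wider gap also has more room for a summit, so summits were counted per length of gap. The gaps of 1 to 150 bp together span 146 kb and held 3 optimal summits, or 20.5 per Mb (exact Poisson interval 4.23 to 59.96), with 34.2 per Mb in replicate 1 and 20.5 in replicate 2. The gaps above 150 and up to 300 bp span 206 kb and held 25 summits, or 121 per Mb (78.5 to 179), with 121 in replicate 1 and 116 in replicate 2. Gaps above 300 and up to 500 bp held 51 summits in 438 kb, or 116 per Mb. The density in the wider downstream gaps was thus within the interval of that just past the limit, and the density in the narrow gaps was below both intervals.

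Gap sequence as a whole was not poorer in summits than the sequence before genes in no run. Of the bases in the 500 bp windows of downstream genes, 28.0% lay between protein-coding genes and 72.0% inside one, where for first genes 85.9% lay between genes. Between genes, the optimal list had 74.4 summits per Mb in downstream windows, 222 in first-gene windows and 70.5 in windows of genes in no run. Replicate 1 gave 80.1, 214 and 67.2, and replicate 2 gave 74.4, 210.0 and 68.8. Inside genes the densities were 6.66, 73.7 and 38.7 per Mb in the optimal list, so downstream windows both held more gene sequence and had fewer summits per length of it than those of genes in no run. The part of either in the lower share was not tested.

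The letters directly before the starts differed with gap width too. An AG stood directly before the annotated start of 39.9% of downstream genes (1003 of 2512), 37.2% of first genes and 24.4% of genes in no run. At gaps above 100 and up to 150 bp it stood before 448 of 784 downstream genes (57.1%), and at wider gaps before 227 of 922 (24.6%), near the 27.6% of all genes. At gaps of 1 to 50 bp, AG stood before 24.6% of starts. There 1 of 211 genes had a summit in the optimal list, 3 in replicate 1 and 1 in replicate 2, too few to be related to AG. First genes with a summit had it in 127 of 209 cases (60.8%), and first genes without one in 34.4%. Among downstream genes, 11 of the 32 with a summit had AG there (34.4%, interval 18.6% to 53.2%), beside 40.0% of those without. AG is a match of letters and does not show that a start is a splice acceptor.

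The base composition of the 100 bp before the start moved in the same direction. That window has a fixed length. At gaps of up to 100 bp it runs into the end of the upstream gene, and at gaps above 150 bp it cannot reach it. The gap classes are thus compared over unlike sequence. AATAAA on either strand, the DNA form of the common 3′-end signal, was present before 42.7% of downstream genes with gaps of 1 to 150 bp, 30.5% of those with wider gaps and 30.9% of all genes. Mean GC content was 29.6% ± 6.78 (SD over genes, n = 1590), 34.2% ± 8.41 (n = 922) and 33.2% ± 8.27 (n = 19973) in the same order. Its part in the count of summits was not tested.

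The summits of downstream genes lay mostly in the gap where the gap was wide. Of the 32 optimal summits, 28 (87.5%) were in the gap, but at gaps of 1 to 150 bp it was 3 of 7 (42.9%). Of the other 4, 3 lay in introns of the upstream gene, 1 in exon sequence outside its coding part and 0 in its coding exons. Replicate 1 had 30 of 36 summits in the gap and replicate 2 had 27 of 34. Pooled candidates were spread more widely, with 242 of 508 in the gap (47.6%), 157 in other exon sequence and 76 in coding exons of the upstream gene. For all 32 genes the start nearest to the summit was the downstream gene's own.

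Summits of downstream genes also lay closer to the start than those of first genes. Their median distance was 144 bp upstream (quartiles 79.75 and 184 bp), beside 234 bp for first genes (154 and 316 bp), and a gap of at most 300 bp limits how far a summit within it can lie. In the profile around starts, first genes peaked at 3.35 summits per 100 genes in the bin from 200 to 100 bp upstream. Downstream genes reached 0.518 per 100 genes in that bin and 0.478 in the last 100 bp before the start. Farther upstream, beyond their windows, they had 0.597 in each of the bins at -1300 to -1200 bp and -1100 to -1000 bp, so the bins next to the start were not their highest.

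**Figure D3:**
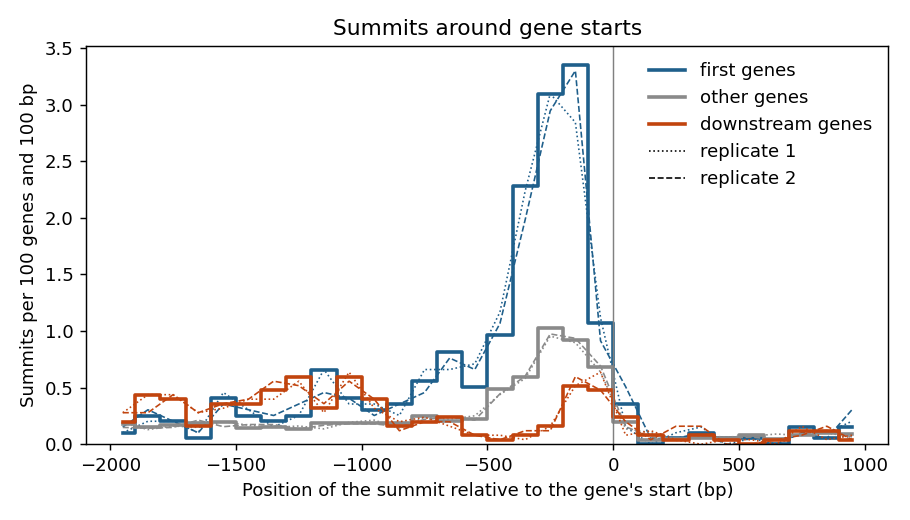
Optimal LSY-2 summits per 100 genes in 100 bp bins, against position relative to the gene start (bp, negative is upstream), for downstream genes, first genes and genes in no run (other genes), with thin lines for the replicates. First genes peak at 3.35 between 200 and 100 bp upstream, where downstream genes stand at 0.518.

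**Figure D4:**
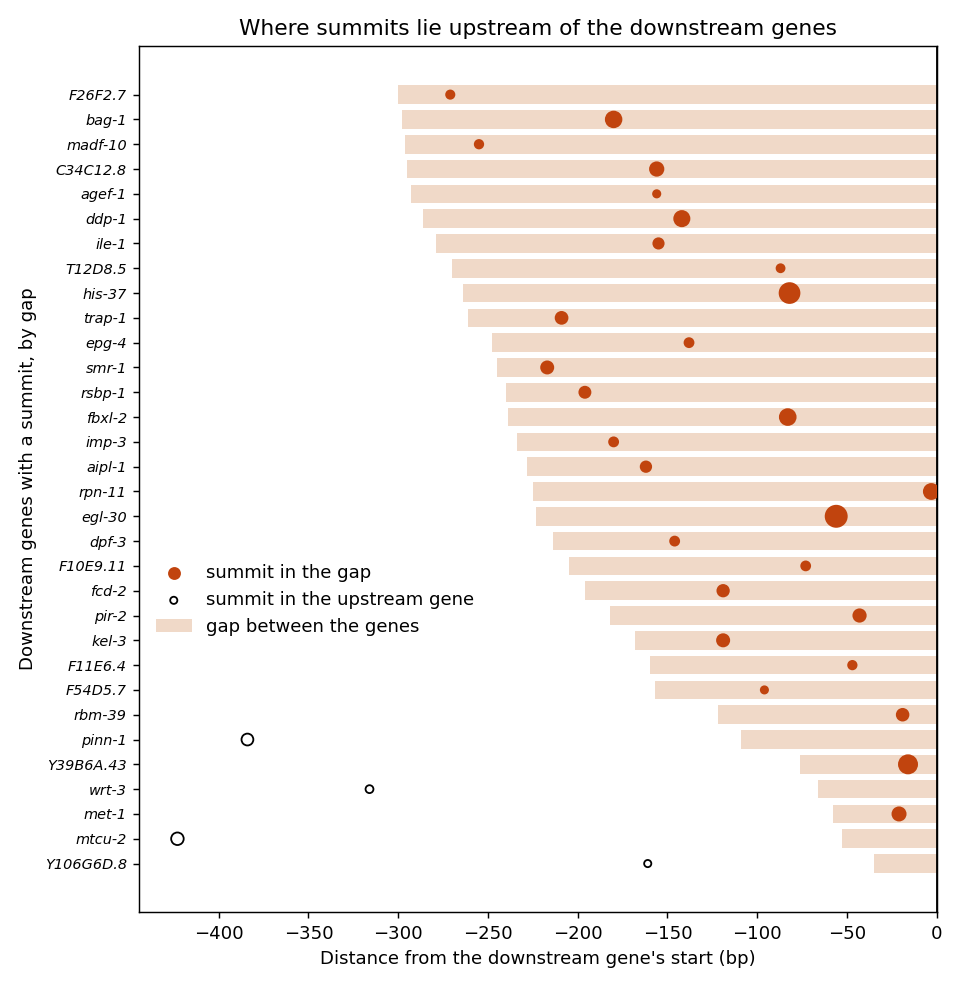
Position of the optimal summit of each of the 32 downstream genes relative to its start (bp), with the gap to the upstream gene drawn to scale as a band, filled points inside the gap, open points inside the upstream gene, and larger points for higher signal. Summits of 28 genes fall inside the gap and 4 fall inside the upstream gene.

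The strongest peak before a downstream gene was at egl-30, which encodes the Gq alpha subunit of neuronal signalling. It is the last of 3 genes on chromosome I, 223 bp after rpl-27, a large-subunit ribosomal protein gene, in a run that begins with C53H9.2. Its signal was 554.5 in the optimal list, 251.4 in replicate 1 and 306.6 in replicate 2, ranks 51, 52 and 48, with the summit 56 bp upstream. Signal is the authors' value for a peak and has its own scale in each list, so ranks are what can be set side by side. The gap of egl-30 is also within reach of another start, that of C53H9.4 at 175 bp from the summit, and it was the 1 downstream summit with another start within 500 bp.

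Second was his-37, a histone H4 gene 264 bp after C50F4.6, a cold-shock domain gene. Its signal was 417.3 in the optimal list, 222.0 in replicate 1 and 198.6 in replicate 2, ranks 77, 64 and 95, with the summit 82 bp upstream. Histone H4 genes have near-identical copies, and how reads that match several copies were treated is not given in the sources used here. It was followed by Y39B6A.43, in a gap of 76 bp after Y39B6A.42, with signals of 289.9, 120.9 and 169.7 and the summit 16 bp upstream. These 3 were at rank 150 or better in both replicates, and no other downstream gene was.

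The next members by signal were fbxl-2, bag-1, ddp-1 and rpn-11. The gene fbxl-2, for an F-box protein of the kind that recruits substrates to ubiquitin ligases, had signals of 184.6 in the optimal list, 86.63 in replicate 1 and 95.07 in replicate 2. For bag-1, an Hsp70 co-chaperone, they were 180.0, 84.53 and 97.25. For ddp-1, the small mitochondrial import chaperone Tim8, they were 167.3, 88.42 and 78.61. The values of rpn-11, the deubiquitinating subunit of the proteasome lid, were 160.9, 78.64 and 83.05, and its summit lay 3 bp before the start. All 4 ranked between 237 and 369 in the replicates, and C34C12.8, a GrpE-type mitochondrial co-chaperone, followed with 125.1 in the optimal list, 75.63 in replicate 1 and 51.75 in replicate 2.

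Further members by signal were met-1, pir-2, smr-1, rbm-39 and fcd-2, with optimal signals of 95.4 to 121.1. The summit of met-1, a histone methyltransferase gene and the fourth of 4 genes in its run, lay 21 bp upstream in a gap of 58 bp, with signals of 121.1, 72.35 and 51.1. For rbm-39, an RNA-binding protein gene 122 bp after the autophagy gene atg-3, they were 98.34, 49.22 and 47.06. The Tudor-domain gene smr-1 had 104.2, 44.62 and 52.69, and fcd-2, the FANCD2 homolog of DNA crosslink repair, had 95.4, 36.26 and 57.53. The phosphatase gene pir-2 had 107.8, 59.06 and 51.01. At Y39B6A.43, met-1 and rbm-39 the gap was at most 150 bp and held the summit, and these were the 3 such genes in the optimal list.

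The other genes named by rank were mtcu-2, for a mitochondrial tRNA-modifying enzyme (110.2), kel-3, for a BTB-domain protein (105.1), and trap-1, for a subunit of the translocon-associated complex (100.7). Below them stood the prolyl isomerase gene pinn-1 (99.98), rsbp-1 (91.09), aipl-1 (84.49) and ile-1, for a cargo lectin of the secretory pathway (83.08), all as optimal signals. In mtcu-2 and pinn-1 the summit was 423 and 384 bp upstream, in an intron of let-268 and sqv-2, the upstream genes. The intron summit of wrt-3, a Warthog gene of the hedgehog-related class, lay 316 bp upstream in cng-3, and an annotated ncRNA and a snoRNA lay within 200 bp of it. It was the 1 downstream summit with a noncoding gene that near. The remaining 12 of the 32 genes, wrt-3 among them, had signals from 60.95 to 72.14.

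Peaks of downstream genes were weaker than those of first genes as a group. Their median signal was 96.87 (quartiles 70.6 and 122.1, range 60.95 to 554.5), beside 118.8 for the 193 peaks of first genes (79.17 and 211.9, up to 5056) and 95.92 for the 489 peaks of genes in no run. The median of all 1563 optimal peaks was 89.83, below that of downstream genes. The 100 strongest of these 1563 included 2 of the 32 peaks of downstream genes, 32 of the 193 of first genes and 58 of the 489 of genes in no run. The highest at first genes were rpl-20, with 5056 in the optimal list, 2239 in replicate 1 and 2833 in replicate 2, and rpl-15, with 4423, 2015 and 2385. Both are large-subunit ribosomal protein genes. F55A11.1 and syx-5, a syntaxin gene, shared a peak of 1800, and lin-53, a histone-binding protein gene, had 1713. Another start lay within 500 bp of the summit in 110 of 212 pairs of a first gene and a peak, and in 1 of 32 for downstream genes.

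All 32 downstream peaks had a candidate in both replicates. Of these, 28 were among the 1563 strongest candidates of replicate 1, 26 among those of replicate 2, and 23 among both. The largest disagreement was T12D8.5, at rank 718 in replicate 1 with a signal of 45.9 and rank 4808 in replicate 2 with 19.89. Counted by gene, 23 downstream genes had a summit in both replicates' strongest lists, which is 63.9% of the 36 in replicate 1 and 67.6% of the 34 in replicate 2. For first genes the 169 shared were 83.7% and 84.9%. For genes in no run the 411 shared were 76.7% and 74.3%. Their median signal of 95.92 was close to the 96.87 of downstream genes, but their upper quartile was higher, at 174.8 beside 122.1. Downstream genes had the smallest shared portion of the 3 classes, but it rests on 23 genes and no interval was computed for it. The part of signal strength in the shared portions was not tested.

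**Figure D5:**
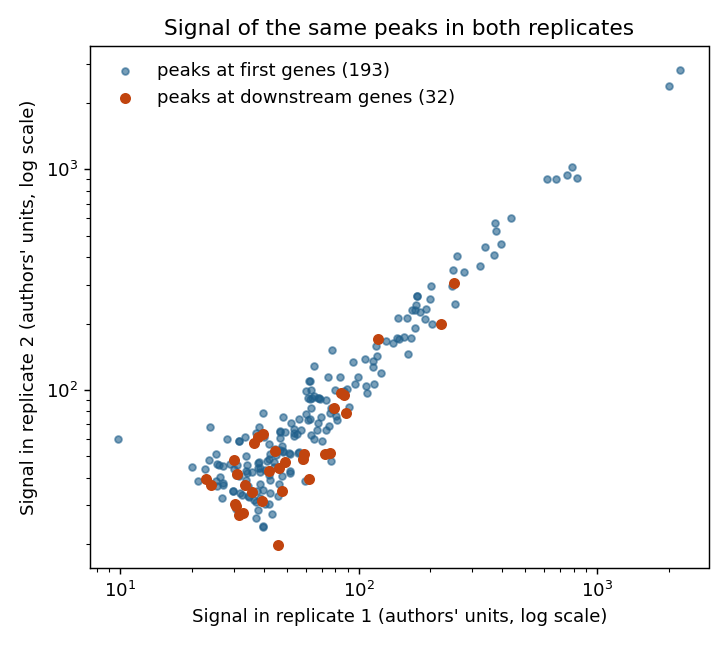
Signal of each optimal peak at downstream and first genes in replicate 1 against replicate 2, both axes logarithmic and in the authors' units, which have a separate scale in each list. The downstream gene egl-30 stands at 251.4 and 306.6, and first genes extend to 2239 and 2833.

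A limit at 300 bp cuts through a continuous range. Just inside it, summits were present at ddp-1 (gap 286 bp), agef-1 (293), C34C12.8 (295), madf-10 (296), bag-1 (298) and F26F2.7 (300), with signals of 167.3, 61.45, 125.1, 68.16, 180.0 and 66.97. Just outside it were F33H1.4 (302 bp, signal 145.2) and hrpu-2 (310 bp, signal 70.04).

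Within a run, a summit before the first gene and none before the rest was the common pattern of binding. Of 1969 runs, 203 had a summit before the first gene alone, 26 before a downstream gene alone, 6 before both, and 1734 before none. The counts were 194, 27 and 8 in replicate 1 and 191, 26 and 8 in replicate 2. Downstream genes whose first gene had a summit had one themselves in 6 of 273 cases (2.20%, interval 0.811% to 4.72%), and the others in 26 of 2239 (1.16%, interval 0.760% to 1.70%). These intervals overlap.

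The 6 runs with both were led by ant-1.1, the ADP/ATP carrier gene of mitochondria (signal 769.6), lin-53 (1713), the splicing factor gene rsp-6 (538.7), dnj-13, a J-domain chaperone gene (211.9), rbg-3 (172.7) and rpl-36 (81.71). Their downstream genes with a summit were kel-3 (105.1), ile-1 (83.08), imp-3, an intramembrane protease gene (72.14), F54D5.7, a glutaryl-CoA dehydrogenase gene (61.2), fbxl-2 (184.6) and epg-4, an autophagy gene (71.86). The downstream signal was the lower one in 5 of these runs, and in the run of rbg-3 it was the higher one.

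Shares by place in the run had overlapping intervals among downstream genes. A summit was present at 27 of 1978 genes in place 2 (1.37%), 3 of 387 in place 3 (0.775%) and 2 of 147 in later places (1.36%), with 30, 4 and 2 in replicate 1 and 30, 2 and 2 in replicate 2. First genes had one in 160 of 1578 runs of 2 genes (10.1%), 38 of 279 runs of 3 (13.6%) and 11 of 112 longer runs (9.82%), with overlapping intervals. In the longest run, 7 genes on chromosome II from rpb-6, a subunit shared by RNA polymerases, to crn-5, with gaps of 88 to 162 bp, no gene had a summit. Of the 8 runs of 6 genes, that of ztf-7 had a summit before its first gene (157.6). The runs of suco-1 and uaf-2, the longest of the 8, had none. Among runs of 5 or more genes, the lin-53 run was the one with 2 summits.

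Known operons were used to see what the spacing rule finds. Of 8 downstream genes of well-known operons, 5 were found: gpd-3, a glycolytic enzyme gene (gap 102 bp), rps-16 (110 bp), deg-3, an acetylcholine receptor gene (113 bp), ced-9, the cell death inhibitor (4 bp), and tra-2, a sex determination gene (127 bp). The other 3 were not found because their annotated starts lie inside the preceding gene, by 22 bp for gpd-2 after mai-1, 58 bp for lin-15A after lin-15B and 166 bp for lin-26 after lir-1. By the rule, gpd-2 and lin-26 were counted as first genes and lin-15A as a gene in no run. The first genes thus include some downstream genes of known operons. None of the 8 had an LSY-2 summit in its window in the optimal list. With a share of 1.27% over all downstream genes, none among 8 is no result about these operons. Of the genes that precede these 8, 2 had a summit: fib-1, the fibrillarin gene before rps-16, with signals of 233.8, 77.02 in replicate 1 and 152.2 in replicate 2, and mev-1, a succinate dehydrogenase subunit gene before ced-9, with 78.02, 42.36 and 34.13. The nearest summit to the start of rps-16 was 1.75 kb away and that to ced-9 was 1.01 kb away, both before the first gene of the run. In all, 570 genes start inside the preceding gene on their strand, and 12 of them (2.11%) had a summit.

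Gene families were counted by position in the run. Of 82 cytosolic ribosomal protein genes, 5 are downstream and none of these had a summit, beside 20 of 28 that are first genes and 37 of 49 in no run. Over all genes the shares were 1.27% of downstream genes, 10.6% of first genes and 3.67% of genes in no run. Beside 1.27%, none among 5 downstream genes is no result about this family. The 5 are rpl-27, rla-1, rpl-16, rps-16 and rpl-25.1, and in 4 of them the first gene of the run had a summit, at Y37E3.8 (147.0), lias-1 (169.0), fib-1 (233.8) and glit-1 (407.2). For rpl-27 it did not, and the nearest summit was that of egl-30, 0.722 kb from the start of rpl-27. Over all 2512 downstream genes, the first gene of the run had a summit for 273.

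Families with many downstream members are given beside the shares over all genes, 1.27% of downstream genes, 10.6% of first genes and 3.67% of genes in no run. Beside the downstream share, a count of 0 among 13 to 22 downstream genes is no result about a family. Among mitochondrial ribosomal protein genes, 0 of 22 downstream genes had a summit, beside 4 of 13 first genes and 4 of 35 in no run. Among subunits of the respiratory chain, it was 0 of 13 downstream, 1 of 5 first and 9 of 21 in no run. A first gene with a summit led the run of 7 of these 13, beside 273 of all 2512 downstream genes. RNA polymerase, TAF and Mediator genes, which make up the transcription machinery, had 0 of 19, 4 of 18 and 1 of 20. Of the 6 downstream proteasome genes, rpn-11 had one.

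Taken over 10 housekeeping families, which also include splicing, chaperone, translation factor, tRNA synthetase and nuclear pore genes, 98 of 487 genes (20.1%) are downstream. A summit was present at 1 of these 98, near the 1.27% of all downstream genes. It was present at 48 of 121 first genes, where 10.6% of all first genes had one, and at 85 of 268 genes in no run, where 3.67% did. In 21 of the 98, the first gene of the run had one, beside 273 of all 2512 downstream genes. Over 5 large families of environmental, receptor and cuticle genes, namely chemoreceptors, nuclear receptors, F-box genes, collagens and C-type lectins, it was 1 of 172 downstream genes, fbxl-2, with 2 of 138 first genes and 13 of 1854 in no run. Both lists of families were drawn up with earlier results of these data known, and the counts are descriptions.

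Downstream genes with a summit were found on all autosomes. The counts were 10 of 448 on chromosome I (2.23%), 4 of 475 on II (0.842%), 9 of 460 on III (1.96%), 5 of 402 on IV (1.24%) and 4 of 540 on V (0.741%). On X it was 0 of 187, with an upper bound of 1.95%. First genes exceeded downstream genes on each, with 13.8%, 11.0%, 13.2%, 13.6%, 5.56% and 6.13% in the same order.

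Short letter patterns at the summits were compared in windows that reach 50 bp to either side, on both strands. At the 32 downstream summits, GAGAGA was found in 15.6%, ACGCAG in 18.8% and CGTCTC in 18.8%. At the 193 first-gene peaks the shares were 17.1%, 22.3% and 21.2%, and at all 1563 optimal peaks 29.8%, 18.7% and 20.8%. In the 100 bp before the starts of all 19973 genes, they were 8.77%, 2.79% and 3.84%. These 3 patterns came from earlier results of these data, so no support is drawn from their shares. The windows before starts had a mean GC content of 33.2%, so they differ in base composition from the windows at summits. GC content at downstream summits was 47.7% ± 6.94 (SD over summits, n = 32), and 47.7% at all optimal peaks.

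A further pattern, GCTGGCG, was chosen after reading gaps that held summits, those of his-37 and fbxl-2 among them, so its count includes genes it came from. It was found at 6 of 32 downstream summits (18.8%), at 9.33% of first-gene peaks and at 3.58% of all optimal peaks. In the 100 bp before all gene starts it was found in 0.270%. A pattern chosen in the same way, GCGCTCC, was found at 1 of 32 downstream summits, 7.25% of first-gene peaks and 3.20% of all optimal peaks. The summit of fbxl-2 lay within GCTGGCG, at base 156 of the gap, where that pattern began at base 152. A match of letters does not show a binding site.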

How the data were processed

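The deposited files used here were narrowPeak lists on ce11, and per the deposited text listings they were made from alignments of the immunoprecipitation and a control. The signal of each peak is the authors' own value, as deposited, with a scale that is not stated. Which aligner and peak caller were run, and at which IDR threshold, is not given in the sources used here. The lists on ce10 were not used, since the annotation is on ce11 and no coordinates were converted.

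Protein-coding genes came from Ensembl release 115 on WBcel235, the same assembly as ce11, and sequence from its RefSeq copy. Runs and upstream genes were built from gene ends on each strand, and a summit was assigned to every gene whose 500 bp upstream window held it. For a single replicate, its 1563 strongest candidates were used, as many as the optimal list holds. Shares have exact Clopper-Pearson intervals and densities exact Poisson intervals, at 95%. Python 3.11.15, numpy 2.4.6, scipy 1.17.1, pandas 2.3.3 and matplotlib 3.10.9 were used. The counting was tested on simulated data, a layout of 4800 genes in which 1143 of 1143 planted summits were found. No simulated gene overlapped another, unlike in the annotation, and genes without a planted summit were not checked for false counts.

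The downstream genes named were the 20 with the highest signal and those nearest the 300 bp limit. The first genes named were the 5 strongest, besides those that lead runs with a named downstream gene. Known operons, the longest runs and members of the gene families were also named. The members and lists were chosen with earlier results of these data known. The letters before starts, the densities, the rank tiers, GCTGGCG and GCGCTCC were added after the data were seen. The sequence of 1 further gap with a summit is not reported here. Alternatives were other gap limits, windows, peak thresholds, replicate overlaps, upstream-gene rules, peak bodies in place of summits, windows without another start, and each replicate alone.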

Additional observations from a re-analysis of the deposited data

How the results depend on the processing

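Over 14 alternative settings and 52 recomputed values, 29 stayed within the counting interval of the reported value and 23 moved. A reversal was defined for the ratio of first to downstream share alone. It occurred in 0 settings, and the ratio stayed above 1 in 14 of 14. With each replicate alone the downstream share was 1.35% to 1.43%, the first-gene share 10.1% to 10.3%, their ratio 7.16 to 7.47 and the share of downstream summits in the gap 79.4% to 83.3%. A gap limit of 150 bp gave 0.440% for downstream genes, 13.0% for first genes, a ratio of 29.4 and 42.9% of summits in the gap. A limit of 500 bp gave 2.32%, 8.19% and 3.52. A window of 250 bp gave 5.99% for first genes and a ratio of 5.58, and one of 1000 bp gave 2.35%, 12.9% and 5.51. The stronger 50% of the optimal list gave 0.717% and 7.06%. All pooled candidates gave 19.0%, 31.8%, a ratio of 1.67 and 47.6% in the gap. First genes had 8.69% with peaks overlapped by the strongest of both replicates, 8.53% with at least 50% overlap and 9.08% without windows that hold another start. Counting peak bodies gave 1.87% for downstream genes and 59.6% in the gap. The cause of these movements was not tested, beyond what each setting changes by construction.

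Depth is unknown, so an absent summit means that none was kept in these lists. The annotated starts were not sorted into promoters and splice acceptors. No paired analysis was possible because the study has 1 group.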
